A study of Homo sapiens with 2 samples.

Results

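The 4 mature products named for the neighbouring hairpins miR-221 and miR-222 were followed in HepG2, a human cell line that the labels give as hepatocellular carcinoma, between a control array and a TCDD-labelled array. They were picked out by name, by removing the probe number from each probe identifier and keeping hsa-miR-221, hsa-miR-221*, hsa-miR-222 and hsa-miR-222*. All 4 were present among 718 probe names. Earlier results of these data were known when the pair was chosen. TCDD (tetrachlorodibenzo-p-dioxin) is a dioxin and a strong ligand of the aryl hydrocarbon receptor, a transcription factor, and the study asked how it affects small RNAs of this line. Per the labels, 1 array carried control RNA and 1 carried RNA of cells given TCDD at 10 nM for 48 h. Both groups were the same cell line in serum-containing medium, and the labels do not say what vehicle the control cells received or whether the RNAs came from separate cultures. A cell line is a single tumour-derived population, so the values describe HepG2 and not liver tissue. With 1 array per group there was no replicate spread, so no difference below could be tested, and every value is only as precise as 2 arrays allow.

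miR-221 and miR-222 are cut from hairpins of a single primary transcript on the X chromosome. A miRNA finds its target mRNAs mainly through its seed, bases 2 to 8 from the 5′ end, and represses them. The guide strands of this pair are known for repressing the cell-cycle inhibitors CDKN1B (p27) and CDKN1C (p57) and the receptor kinase KIT, and miR-221 in particular is widely described as raised in liver cancer. The star names are older names for the opposite strand of each hairpin.

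The sequences of the strands are shown because the guides share a seed while the miR-222 strands do not. They are RefSeq sequences of the GRCh38.p14 build, 5′ to 3′, with the seed in capitals, and RefSeq matched 3 of the 4 names, the exception being miR-221*. The probe named miR-221 was paired with miR-221-3p (chrX:45746180-45746202, minus strand), the probe named miR-222 with miR-222-3p (chrX:45747036-45747056, minus strand) and the probe named miR-222* with miR-222-5p (chrX:45747073-45747094, minus strand).
miR-221-3p: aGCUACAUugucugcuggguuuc
miR-222-3p: aGCUACAUcuggcuacugggu
miR-222-5p: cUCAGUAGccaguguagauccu
The guides miR-221-3p and miR-222-3p had the same first 8 bases, and their seed occurred in 2 of the human mature miRNAs of the RefSeq table, these guides themselves. Over the whole guides, shared start included, 11 of 21 bases matched position by position, and 18 matched when gaps were allowed. Cross-hybridisation between the 2 guide probes was not tested. The seed of miR-222-5p occurred in no other mature miRNA of the table, so the star strand does not share the guides' seed.

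The hairpins are 110 bases long each, and their starts lie 858 bases apart inside the long noncoding RNA gene MIR222HG, on the same strand. The miR-222 hairpin (chrX:45747015-45747124, minus strand) is shown with its 2 mature strands in capitals, the miR-222* strand first and the miR-222 guide second, because both strands were measured.
MIR222 hairpin: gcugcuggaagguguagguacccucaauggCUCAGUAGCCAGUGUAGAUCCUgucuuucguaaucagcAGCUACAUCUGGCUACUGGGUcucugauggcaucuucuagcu

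The arrays report fluorescence on the log2 scale. The smallest deposited value, 5.64 (a fluorescence of 50), was shared by 343 names on the control array and 257 on the TCDD-labelled array, so dimmer signals had been raised to it. A floor was set at 2 times that value (6.64 on the log2 scale, a fluorescence of 100), and a name above the floor on at least 1 array counted as detected, which held for 242 of the 718 names. All 4 products of the pair were above the floor on both arrays.

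Both guide strands were bright and close to equal on the 2 arrays. The probe for miR-222 was at 15.10 log2 fluorescence in control cells and 14.86 on the TCDD-labelled array, a fluorescence of 35011 and 29813. It was therefore 1.17-fold lower on the TCDD-labelled array, a log2 difference of -0.23. The probe for miR-221 was at 13.94 in control and 13.98 on the TCDD-labelled array, a fluorescence of 15703 and 16129. Its log2 difference was 0.039, a 1.03-fold difference in the other direction. The guides thus lay on opposite sides of 0 in the deposited values, and the lean of miR-222 was the larger.

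The opposite strands were dimmer and differed less than miR-222 did. The probe for miR-222* was at 10.42 in control and 10.37 on the TCDD-labelled array, a fluorescence of 1371.5 and 1319.95, with a log2 difference of -0.055. The probe for miR-221* was at 6.88 on both arrays, a fluorescence of 118 in control and 117 on the TCDD-labelled array. It lay 0.24 log2 above the floor in control and 0.23 on the TCDD-labelled array, so it was barely detected and its difference of -0.0053 says little. Brightness depends on the probe as well as on the RNA, so these levels do not rank the 4 products by abundance.

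**Figure D1:**
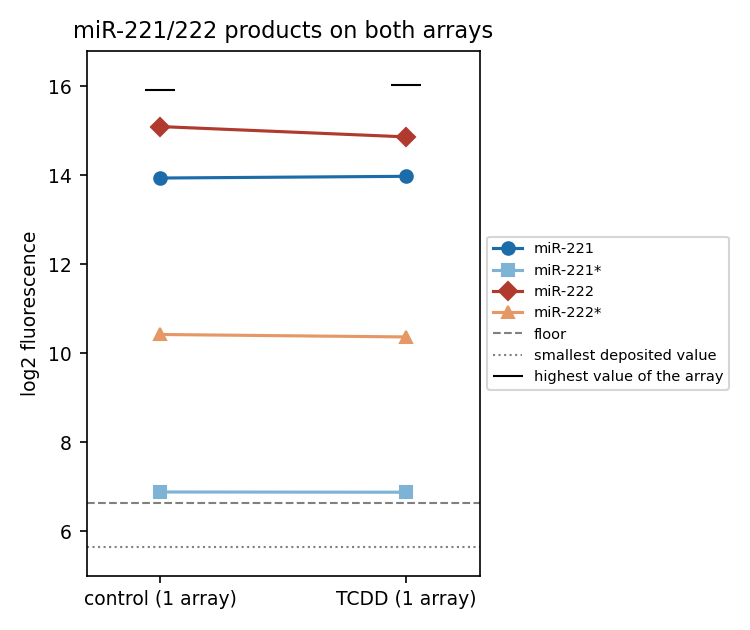
The log2 fluorescence of the 4 products is plotted for the control array and the TCDD-labelled array, 1 array each, with lines joining the same probe. The lines are nearly flat, the steepest being that of miR-222 (15.10 to 14.86), and miR-221* lies just above the dashed floor at 6.64.

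Signals near the top of an array can be compressed. The highest value was 15.93 on the control array and 16.02 on the TCDD-labelled array. The probe for miR-222 lay 0.83 log2 below the top in control and 1.16 below it on the TCDD-labelled array, and the probe for miR-221 lay 1.99 and 2.05 below. Neither guide was at the top value, and whether the miR-222 signal was compressed was not tested.

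None of the 4 products was at least 2-fold apart between the arrays: 0 of 4 were higher and 0 of 4 were lower. Of all 242 detected names, 0.413% were at least 2-fold higher and 2.48% at least 2-fold lower, so a count of 0 among 4 is near the background. At 1.5-fold, where 3.31% of detected names were higher and 4.13% lower, the members again gave 0 in each direction. The names past 2-fold were miR-638, higher by 1.10 on the log2 scale, and, all lower, miR-181a* (a bound of -2.24), miR-181b (-1.55), miR-181a (-1.50), the unnamed candidate 6_5 (-1.31), miR-191 (-1.17) and miR-184 (-1.02). All directions rest on the deposited labels.

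Set among the 242 detected differences, 3 of the 4 products lay in the middle of the distribution, and miR-222 ranked 190 from the highest. Of the detected names 43.4% had a difference larger in size than that of miR-222. The same share was 88.4% for miR-221, 83.5% for miR-222* and 98.3% for miR-221*. The median difference of all detected names was -0.0033, and the robust SD over names detected on both arrays was 0.28. The difference of miR-222, the furthest of the 4, was smaller in size than that spread between miRNAs in the deposited values. Its difference was -0.38 with a trend on level removed, -0.35 before scaling and -0.39 against 6 reference small RNAs. The spread was not computed in those settings, so these values are not set against it. The median of all detected names was also lower before scaling (-0.071) and against 6 reference small RNAs (-0.16). This spread is over names within 1 pair of arrays and does not stand for replicate error.

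The differences also varied with brightness, which touches both guides. Names detected on both arrays were put into 4 classes of level. In the brightest class, where miR-221 and miR-222 lie, the median log2 difference was 0.085 (56 names). In the class that holds miR-222* it was 0.022, and in the dimmest, which holds miR-221*, it was -0.048. The class above the dimmest was the lowest, at -0.13, so the medians did not rise steadily with level. Among the 8 other names within 0.5 log2 of the mean level of miR-222 the median was 0.15, from -1.17 to 0.57, and 6 of them lay above miR-222. Against that local median, miR-222 was lower by a further margin, at -0.38. Among the 9 names around miR-221 the median was 0.074, close to the value of miR-221 itself, and 7 of them lay above it.

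**Figure D2:**
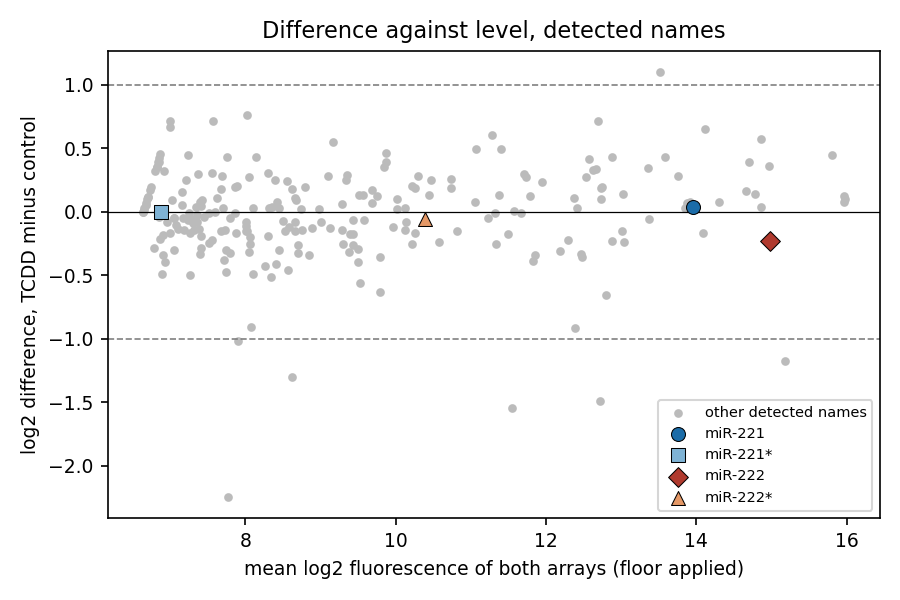
For the 242 detected names, the log2 difference (TCDD-labelled array minus control) is plotted against the mean log2 fluorescence of both arrays, with dashed lines at 2-fold. The 4 products of the pair lie near 0 at all levels, and miR-222, at -0.23, sits below most of the bright names around it.

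The guides of the pair come from 1 transcript, and their differences were 0.27 log2 apart. The same gap was computed for the 66 other pairs of names, star names left out, that were above the floor on both arrays and whose genes start within 10 kb of each other. Several of these pairs share a name or a cluster. A name with gene copies at several loci was counted if any copy lay that near, so such a pair need not come from 1 transcript alone. Their median gap was 0.21, with a middle range from 0.14 to 0.36, so the gap of miR-221 and miR-222 was inside the middle range and ranked 28 of 67 from the widest. The widest gaps were those of miR-191 and miR-425 (0.94), of miR-19b and miR-92a (0.91) and of miR-29a and miR-29b (0.85). The narrowest were those of miR-501-3p and miR-502-3p (0.011), of miR-25 and miR-93 (0.016) and of let-7e and miR-125a-5p (0.030).

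The 2 strands of each hairpin stayed close to each other as well. The difference of miR-221 minus that of miR-221* was 0.044, which ranked 43 from the widest gap among the 45 hairpins whose strands were paired by name. For miR-222 and miR-222* it was -0.18, which ranked 29 of 45. Star names that also carry a copy number, such as miR-181a-2*, miR-92a-1* and miR-138-1*, were left unpaired. Such names can lie further apart than any pair counted here, as miR-181a (-1.50) and miR-181a-2* (-0.32) did. The 43 other paired hairpins, with both strands above the floor on both arrays, had a median gap of 0.24, with a middle range from 0.12 to 0.38. Among the paired hairpins the widest gaps were those of miR-191 (1.08), miR-339 (0.83) and miR-200a (0.69). The 3 narrowest were those of miR-331 (0.016), miR-574 (0.024) and miR-221. Because miR-221* lies close to the floor, its gap rests on a dim signal.

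**Figure D3:**
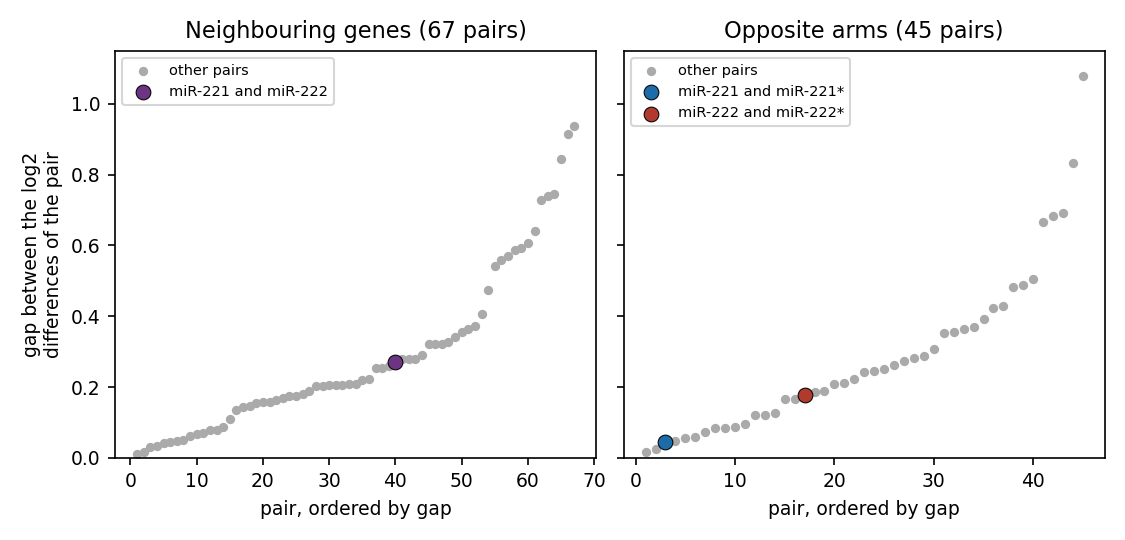
The gap between the log2 differences of 2 names, without sign, is plotted for 67 pairs of neighbouring genes and 45 pairs of opposite hairpin strands, ordered by size. The pair miR-221 and miR-222 (0.27) and both of its hairpins (0.044 and 0.18) lie well short of the widest gaps plotted (0.94 and 1.08). Star names with a copy number are not among the strand pairs.

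The detected human miRNAs nearest to each product, by Euclidean distance over its log2 values on the 2 arrays, were read as a description. For miR-222 the nearest was miR-21, widely described as raised in tumours, at a distance of 0.019, with 15.11 in control, 14.86 on the TCDD-labelled array and a difference of -0.25. The next were miR-23b (0.25 away) and miR-320 (0.38 away). For miR-221 they were miR-192 (0.058 away), an abundant liver miRNA with a difference of 0.074, then miR-23a (0.14 away) and miR-24 (0.24 away). For miR-222* they were miR-324-3p (0.15 away), miR-182 (0.20 away) and miR-130a (0.24 away). The value of miR-221* was equal on both arrays to that of miR-30e*, a distance of 0, and miR-146b-3p (0.053 away) and miR-23b* (0.13 away) followed. At that dimness the deposited signals fall on steps of about 1 fluorescence unit, so equal values are easily reached.

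The detected miRNAs on the lists for CDKN1B and KIT, other than the pair, were only miR-24, miR-181a and miR-193b. Their differences were below 0, as were those of 122 of 242 detected names, and 1 of them, miR-181a, was past 2-fold. Of 6 names reported to act on CDKN1B, 4 were detected. Their median was -0.20 (-0.83 over the 2 without the pair) against -0.0033 for all detected names. The 4 were miR-181a at -1.50, miR-222 at -0.23, miR-24 at -0.17 and miR-221 at 0.039. Thus 1 of the 4 was at least 2-fold lower, against 2.48% of all detected names. The written lists, here and below, were chosen with earlier results of these data known. Their shares and medians are therefore descriptions and give no evidence of an excess. miR-148a and miR-196a were not above the floor. For KIT, all 3 matched names were detected, with a median of -0.23, which is the value of miR-222 itself. The name beside the pair was miR-193b, at 13.13 in control and 12.47 on the TCDD-labelled array, a difference of -0.66. The arrays measure no mRNA, so none of these targets was observed.

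In the list of miRNAs often raised in hepatocellular carcinoma, both guides lay below the list median. Of 21 matched names 17 were detected, 11 with differences above 0, with a median of 0.12, against 120 of 242 above 0 and a median of -0.0033 over all detected names (0.14 over the 15 names of the list without miR-221 and miR-222). No member was 2-fold apart. The furthest were miR-183 (-0.36) and miR-30d (-0.36) below, and miR-106b (0.34) and miR-17-5p (0.43) above. Of 14 matched names often lowered in that cancer, 6 were detected, with a median of 0.039. They were miR-26a at 0.36, miR-200b at 0.073, miR-101 at 0.051, miR-145 at 0.028, miR-122a at -0.00665 and miR-29c at -0.25.

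The pair lies on the X chromosome, and 73 array names mapped to genes found there alone. Only names that matched the gene table by symbol (612 of 670 human names) could enter, so the list can lack miRNAs of this chromosome. Of these, 25 were detected, 16 with differences above 0 (49.6% over all detected names) and none 2-fold apart, with a median of 0.091 against -0.0033 over all. Without the 4 products the median of the other 21 was 0.11. The lowest were miR-505* (-0.40) and miR-532-3p (-0.30), and the highest were miR-452 (0.46) and miR-501-5p (a bound of 0.71, since its control value was under the floor).

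**Figure D4:**
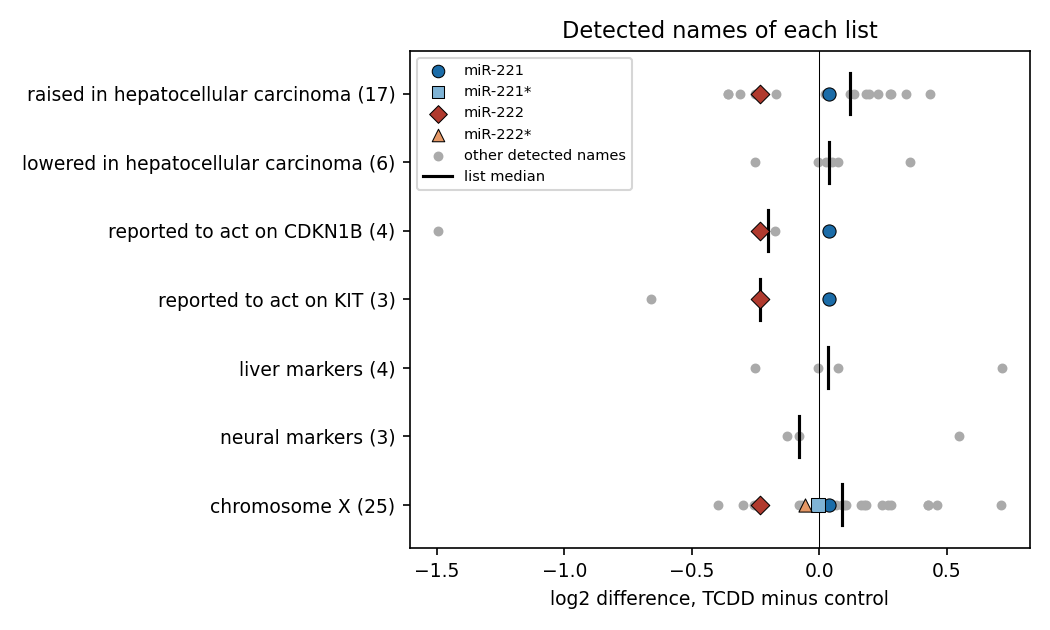
The log2 difference (TCDD-labelled array minus control) of each detected name is plotted for the lists with at least 3 detected names, with a black bar at the list median. miR-221 (0.039) stays near 0 and miR-222 (-0.23) lies below the median of each list that holds it except the KIT list, whose median it is.

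Markers of endothelium, a cell type in which the pair is prominent, were not detected. The endothelial markers miR-126 and miR-126* were under the floor on both arrays, with a summed fluorescence of 129 in control and 132 on the TCDD-labelled array. None of the 7 blood markers (summed fluorescence 363 and 361) and none of the 4 muscle markers (224 and 215) was detected. Of 4 fibroblast and smooth muscle names, 2 were detected, miR-145 at 12.39 in control and 12.42 with the TCDD label and miR-143 at 10.17 and 10.36. The list's summed fluorescence was 6637 and 6905. Both arrays carried RNA of the same cell line, so these values do not measure a share of other cell types. Of 5 matched neural names 3 were detected, miR-128b (-0.13), miR-128a (-0.081) and miR-138 (0.55), with a summed fluorescence of 1589 and 1762. Of 5 matched liver names 4 were detected, with miR-192 (0.074) and miR-194 (0.72) bright and miR-122a, the main hepatocyte miRNA, dim at 7.60 and 7.59. The liver list also held miR-21, its brightest name on both arrays (15.11 in control and 14.86 on the TCDD-labelled array). The list's summed fluorescence, 56062 and 54533, includes miR-21 and so does not measure the other liver names alone. The miRNAs linked to the aryl hydrocarbon receptor were near or under the floor, with miR-132 at 6.97 and 6.76 and miR-212 under it on both arrays.

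The promoter of the host gene is shown because TCDD acts through a receptor that binds DNA at the core motif GCGTG. The RefSeq window (GRCh38.p14, chrX:45770218-45770517, minus strand, read in the direction of the gene) runs from 250 bases before the annotated start to 50 bases after it, with the transcribed bases in capitals.
MIR222HG promoter: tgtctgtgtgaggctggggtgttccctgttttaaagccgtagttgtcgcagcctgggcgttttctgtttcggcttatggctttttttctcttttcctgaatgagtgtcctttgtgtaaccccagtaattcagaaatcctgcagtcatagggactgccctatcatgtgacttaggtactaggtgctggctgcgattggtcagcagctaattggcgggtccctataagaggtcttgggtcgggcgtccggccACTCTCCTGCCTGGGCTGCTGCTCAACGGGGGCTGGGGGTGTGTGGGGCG
The letters GCGTG, searched on both strands, occurred 0 times in this window, and 36.3% of 27305 promoter windows of the same length held them at least once. The letters TATAA, the core of a TATA box, occurred 1 time on the 2 strands, 30 bases before the start, and 21.1% of the windows held them. A match or its lack describes these letters only, and binding was not measured.

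The deposited values had been scaled, and this bears on the sign of miR-221. On the linear scale all deposited values above the smallest lay, within 0.05 units, at single-unit steps once a smooth curve was removed (100% of 375 values in control and 100% of 461 on the TCDD-labelled array). The curve and an offset of the steps were chosen to make these shares as large as possible. The offset was 0.83 units in control and 0 on the TCDD-labelled array. At a signal of 10000 that curve was a factor of 0.959 in control and 1.05 for the TCDD-labelled array. With that curve inverted, miR-221 was at 16391 units in control and 15460 on the TCDD-labelled array, a log2 difference of -0.084. miR-222 was at 36580 and 28775 units, a difference of -0.35, and miR-222* at 1416 and 1261 units, a difference of -0.17. miR-221* was at 119 and 116 units, a difference of -0.035. Before scaling, therefore, all 4 products lay slightly lower on the TCDD-labelled array, while the median of all detected names was -0.071. Of the 4, miR-222 and miR-222* were below 0 in every processing tried, and miR-221 and miR-221* were not. Not every setting could change the sign. Removing the floor or raising it to the 75th percentile left miR-222 and miR-222* exactly as deposited, because both lie above either floor. Adding the floor before log2 cannot reverse a sign, and median centring shifted values only by the median of -0.0033. The sign in these settings is therefore no separate evidence.

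**Figure D5:**
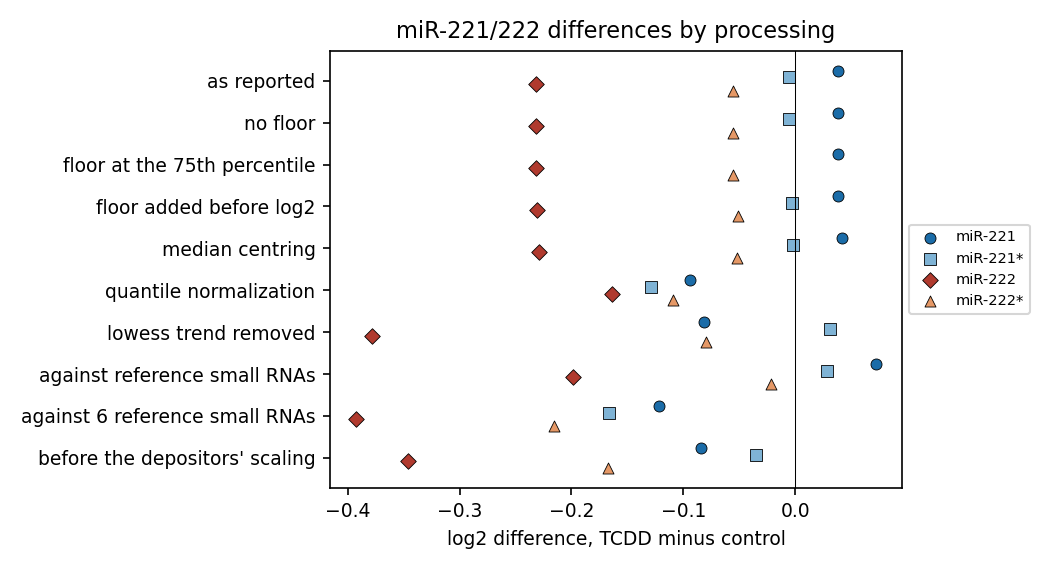
The log2 difference (TCDD-labelled array minus control) of each product is plotted for the values as reported and for 9 other ways of processing the same 2 arrays. miR-222 lies between -0.39 and -0.16 throughout, while miR-221 crosses 0, from -0.12 to 0.072.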

How the data were processed

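Small RNAs were measured on 2 arrays, 1 per group, grouped by the treatment label. The deposited table holds log2 fluorescence of a single channel (Cy3, per the labels). The other channel held unrelated samples, per the series' design text. The dye was attached to total RNA through a ligated linker, per the labels' protocols. How signals were scanned, background-corrected and scaled is not given in the sources used here. Of 719 probes, names were formed by removing the probe number, and the probes sharing a name were averaged, giving 718. Values under the floor were raised to it before the difference was taken, so a difference against a floored value is a bound. With no residual degrees of freedom there was no test, no p-value and no SD between replicates. The robust SD given is a spread over names within the pair of arrays. Of 670 human miRNA names, 612 matched the RefSeq gene table by symbol. The members and the 11 written lists used were chosen with earlier results of these data known. Named by rule were the members, their 3 nearest names, every 2-fold name, the 2 highest and 2 lowest detected names of each list (all where at most 6) and the 3 widest and narrowest pairs. The chromosome X list came from the gene table. The recovery of values before scaling and a set of 6 reference RNAs were added after the data were seen. Python 3.11.15, numpy 2.4.6, pandas 2.3.3, statsmodels 0.14.6 and matplotlib 3.10.9 were used, and the steps were tested on simulated data. The simulated differences were far larger than those of the pair, so the simulation does not cover differences this small. Its scaling had the same form of curve as the one inverted here. 1 further list is not reported here.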

Additional observations from a re-analysis of the deposited data

How the results depend on the processing

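Alternatives were the deposited values without a floor, a stricter floor (the 75th percentile), the floor added before log2, quantile normalization, median centring, a lowess trend on level removed (fraction 0.5), differences against the mean of RNU44 (0.069), RNU24 (0.025), RNU66 (-0.083) and RNU38B (-0.15), a 1.5-fold threshold, human miRNA names alone and, added after the data were seen, values before scaling and differences against 6 reference RNAs, with RNU48 (0.44, at the top of the TCDD-labelled array) and RNU6B (0.65) joining the 4. This last setting moved the median of all detected names to -0.16. No product of the pair reached 1.5-fold under any of them. miR-222 ranged from -0.39 (6 RNAs) to -0.16 (quantile) and miR-222* from -0.22 (6 RNAs) to -0.022 (4 RNAs). miR-221 was below 0 in 4 of 9 alternatives, at -0.12 against 6 RNAs, -0.094 after quantile normalization, -0.081 with the trend removed and -0.084 before scaling. miR-221* was above 0 in 2 of 8, at 0.032 with the trend removed and 0.028 against 4 RNAs, and lowest at -0.17 against 6. It lies under the 75th percentile floor and has no value there. The median of both guides ranged from -0.26 to -0.063. The gap between the guides fell to 0.070 after quantile normalization and otherwise lay between 0.26 and 0.30, and the cause was not tested. The count at least 2-fold higher, 1 as reported, was 8 with no floor, 8 at 1.5-fold, 0 with the trend removed, 0 before scaling and 0 against 6 RNAs. The count lower, 6 as reported, was 10 at 1.5-fold and otherwise 5 to 8. No paired analysis was possible because there was only 1 array of each kind, which also leaves no replicate to omit. Signal over background limits miR-221* most.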
